A study of Homo sapiens with 12 samples.

Results

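The response of control MDA-231-LM2 cells to IGF1 was read from 6 of the 12 RNA-seq libraries in the series, 3 labelled Ctrl+IGF1 and 3 labelled Ctrl. They were chosen by label alone, and 13071 of the 21574 features in the expression table passed the filter of at least 1 TPM in 3 or more of the 12 libraries. MDA-231-LM2 is a human breast cancer line, a derivative of MDA-MB-231 selected in mice for growth in the lung. All 6 libraries came from this line and were labelled Ctrl for the TMEM216 factor of the design, and they differ by label in added IGF1. The labels give neither the dose and duration of IGF1, nor the serum conditions, nor how the Ctrl population was made. Nor do they state that replicates came from separate cultures. The p-values therefore reflect library-to-library spread, part or all of which may be technical. The other 6 libraries, 3 of TMEM216+IGF1 and 3 of TMEM216 cells, entered the shared estimate of the spread and a test of whether the IGF1 response differed between the populations.

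Insulin-like growth factor 1 binds the receptor tyrosine kinase IGF1R, which recruits the adaptors IRS1, IRS2 and SHC1. From these, PI3K and AKT signal to mTOR complexes and keep FOXO transcription factors out of the nucleus, while RAS and the MAP kinases ERK drive immediate early genes such as FOS and EGR1. In breast cancer cells the pathway is known for its effects on growth, survival and motility, and receptors, substrates and feedback inhibitors are themselves under transcriptional control.

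Expression was given as TPM, a level corrected for transcript length and scaled to the same total in every library, so sequencing depth is unknown. Markers fixed for mesenchymal triple-negative lines were all tested, 11 of 11, led by VIM, KRT18 and AXL. Their summed level was 8343 to 9302 TPM in Ctrl+IGF1 and 9320 to 9531 TPM in Ctrl libraries. PGR, TFF1, TFF3, CD3D, CD3E, CD3G, CD2, MS4A1, CD163, TYROBP, C1QA, C1QB and PDPN, markers of luminal, immune and stromal cells, were listed at 0 in all 6 libraries. Other members of those lists were present. The luminal list, led by XBP1, KRT19 and EPCAM, summed to 218 to 254.5 TPM in Ctrl+IGF1 and 241 to 252 TPM in Ctrl libraries, and the myeloid list, led by CD68, CD14 and FCER1G, to 173 to 217 TPM in Ctrl+IGF1 and 207 to 214.5 TPM in Ctrl libraries. The endothelial list summed to 149 to 168 TPM in Ctrl+IGF1 and 156 to 169.8 TPM in Ctrl libraries, and the T and B cell list to 6.83 to 7.88 TPM in Ctrl+IGF1 and 6.32 to 8.29 TPM in Ctrl libraries. The fibroblast list summed to 51.1 to 61.2 TPM in Ctrl+IGF1 and 60.3 to 64.3 TPM in Ctrl libraries. TMEM216 transcript was at 24.6, 27.5 and 29.8 TPM in Ctrl+IGF1 libraries and 30.1, 24.0 and 25.1 TPM in Ctrl libraries, against 163 to 249.6 TPM in the 6 TMEM216 libraries. Ctrl+IGF1 replicate 3 stood apart. Its score on the first principal component, with 22% of the variance, was -31.0, against -8.44 and 6.59 for the other Ctrl+IGF1 libraries and -3.13 to 5.40 for the Ctrl libraries. Ribosomal protein genes took 14.5, 12.5 and 17.0% of all TPM in Ctrl+IGF1 libraries and 13.4, 13.0 and 12.7% in Ctrl libraries, with replicate 3 highest (two-sided exact permutation test, p = 0.4, where 3 against 3 libraries cannot go below 0.1). Results that rest on this library are given with and without it.

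Few features changed with IGF1 in the control cells, and in the fit of all 12 libraries each change was a fall. Of 13071 tested features, 4 passed an adjusted p of 0.05 (0.0306%) by limma's moderated test, 0 higher and 4 lower in Ctrl+IGF1 libraries. They were FOSB, an immediate early transcription factor, SRSF1, a splicing factor, PLLP, a membrane protein first found in myelin, and ENSG00000273049, a low feature known here only by its identifier. That last feature passed the low-value filter only through the Ctrl libraries. None of the canonical IGF1, PI3K, ERK or mTOR output genes named below passed except FOSB. In bulk libraries a lower level in every cell and fewer cells with the transcript cannot be told apart.

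Below that threshold the differences leaned to lower values. At an unadjusted p of 0.05, 159 features (1.22%) were higher and 741 (5.67%) lower in Ctrl+IGF1 libraries, 900 in all (6.89%). All 3 Ctrl+IGF1 libraries lay above all 3 Ctrl libraries for 355 features (2.72%) and below them for 1547 (11.8%). Counts over gene lists below are to be read against these shares. The median difference over all features was -0.088 on the log2(TPM + 1) scale, on which every difference below is given, Ctrl+IGF1 minus Ctrl. This lean moved with the scaling and with a single library. Lower features made up 82.3% of those with unadjusted p below 0.05 as deposited, but 44.2% after median-of-ratios scaling and 48.0% after quantile normalization, and the median of all features was then -0.0049 and -0.0086. Without Ctrl+IGF1 replicate 3 the median was -0.024, with 145 features higher and 324 lower. Without Ctrl+IGF1 replicate 2 it was -0.14, with 442 higher and 2127 lower. Large differences were rare. Among 10475 features with a mean of at least 5 TPM over the 6 libraries, 32 were higher and 67 lower by at least 0.5, and 13 were higher and 17 lower by at least 1.

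**Figure D1:**
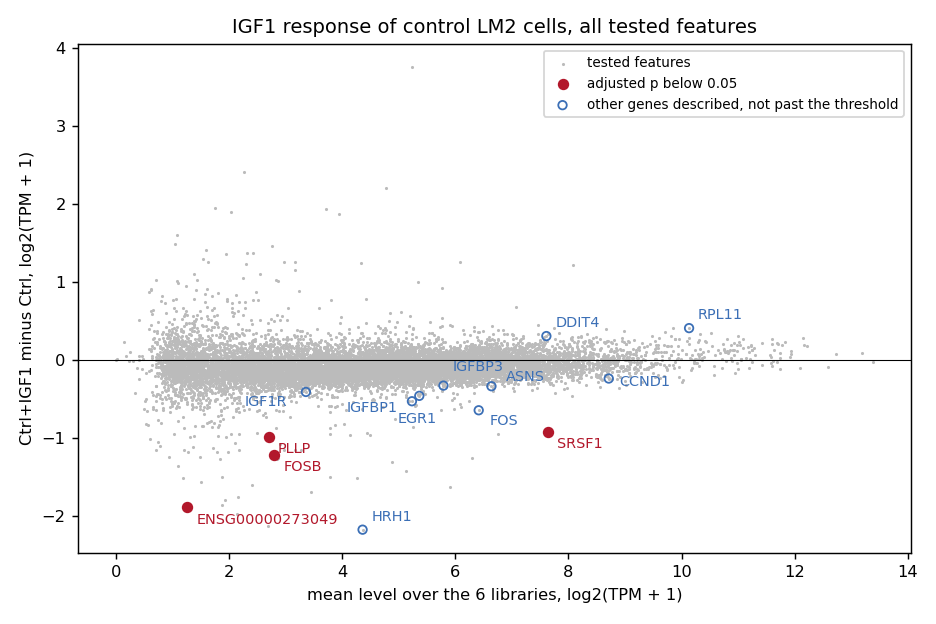
Difference between Ctrl+IGF1 and Ctrl libraries (vertical axis, log2(TPM + 1)) against the mean level over the 6 libraries (horizontal axis, log2(TPM + 1)) for 13071 features, with the 4 features past the threshold as filled red circles and other described genes, which did not pass, as open blue circles. Most features lie close to 0, and all 4 filled circles lie below it.

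FOSB was the only gene of the pathway lists to pass. It encodes a partner of JUN proteins in the AP-1 transcription factor. It stood at 2.58, 4.14 and 2.88 TPM in Ctrl+IGF1 libraries, against 9.83, 7.86 and 8.41 TPM in Ctrl libraries. Every Ctrl+IGF1 library lay below every Ctrl library, and FOSB fell by 1.22 on the log2 scale (SE 0.16, 95% interval -1.57 to -0.87, adjusted p = 0.0386). FOS, the founding member of the family, stood at 69.2, 66.8 and 60.5 TPM in Ctrl+IGF1 libraries, against 108, 101 and 99.7 TPM in Ctrl libraries. Its groups did not overlap either, but the difference of -0.64 (SE 0.11) did not pass (adjusted p = 0.158). EGR1, a zinc finger factor induced by ERK signalling, stood at 28.1, 32.1 and 29.1 TPM in Ctrl+IGF1 libraries, against 44.8, 40.8 and 44.5 TPM in Ctrl libraries. These groups were also apart, and the difference of -0.53 (95% interval -0.80 to -0.25) did not pass (adjusted p = 0.564).

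The promoters of these 3 genes and of SRSF1 and PLLP are shown because the first 3 share a known induction route and the other pair also fell. Those of FOS and EGR1 were added after their values had been seen. Each sequence is the 250 bases before the RefSeq transcription start in build GRCh38.p14, read 5′ to 3′ on the gene's strand. Capitals mark matches, on either strand, to the motifs searched, which did not overlap one another in these windows.
FOSB, chr19:45467746-45467995, plus strand: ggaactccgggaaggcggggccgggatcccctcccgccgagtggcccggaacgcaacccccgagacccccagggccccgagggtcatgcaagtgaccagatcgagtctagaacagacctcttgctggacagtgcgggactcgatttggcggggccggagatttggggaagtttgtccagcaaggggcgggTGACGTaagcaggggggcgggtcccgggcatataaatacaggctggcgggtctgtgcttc
FOS, chr14:75278578-75278827, plus strand: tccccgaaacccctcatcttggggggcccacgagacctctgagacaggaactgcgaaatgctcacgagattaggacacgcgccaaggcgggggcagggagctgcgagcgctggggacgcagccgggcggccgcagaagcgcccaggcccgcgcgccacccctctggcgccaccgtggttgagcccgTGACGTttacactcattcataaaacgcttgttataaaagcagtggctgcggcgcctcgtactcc
EGR1, chr5:138465229-138465478, plus strand: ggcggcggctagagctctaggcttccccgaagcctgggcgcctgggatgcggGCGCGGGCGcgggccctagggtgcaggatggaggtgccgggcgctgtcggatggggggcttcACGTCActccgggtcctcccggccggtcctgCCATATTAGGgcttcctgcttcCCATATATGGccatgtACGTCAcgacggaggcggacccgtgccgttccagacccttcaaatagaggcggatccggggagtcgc
SRSF1, chr17:58007247-58007496, minus strand: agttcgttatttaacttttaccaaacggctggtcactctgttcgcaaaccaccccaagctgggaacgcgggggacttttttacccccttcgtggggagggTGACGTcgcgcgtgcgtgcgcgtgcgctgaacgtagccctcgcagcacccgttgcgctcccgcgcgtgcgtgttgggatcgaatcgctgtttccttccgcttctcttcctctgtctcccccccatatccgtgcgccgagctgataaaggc
PLLP, chr16:57284673-57284922, minus strand: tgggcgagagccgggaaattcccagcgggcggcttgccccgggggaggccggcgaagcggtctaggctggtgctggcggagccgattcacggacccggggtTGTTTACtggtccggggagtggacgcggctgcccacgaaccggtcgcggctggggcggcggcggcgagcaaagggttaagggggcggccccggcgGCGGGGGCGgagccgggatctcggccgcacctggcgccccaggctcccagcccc

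The motifs searched were the CArG box bound by SRF, the core TGACGT of the cAMP response element, AP-1 (TGANTCA), EGR (GCGNGGGCG), FOXO (GTAAACA), TEAD (GGAATG) and the E-box CACGTG. The cAMP response element core, whose letters were settled on after the sequences had been looked at, began 60 bases before the start in FOSB, 64 in FOS, 136 and 67 in EGR1 and 150 in SRSF1. It occurs in 7.1% of 35116 promoter windows of this length. EGR1 held CArG boxes that began 105 and 83 bases before the start, a motif found in 1.16% of windows, and an EGR match at 198. PLLP held an EGR match at 54 and a FOXO match at 149, motifs found in 8.41% and 2.98% of windows. The AP-1, TEAD and E-box letters, found in 6.57%, 11.9% and 6.34% of windows, were absent from these 5. A match is a run of letters and no evidence of binding.

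The immediate early list was counted as a whole, FOSB included. Of 35 listed genes 30 were tested. FOSB alone passed. At an unadjusted p below 0.05, 0 were higher and 7 lower, against 1.22% and 5.67% of all features. With Ctrl+IGF1 replicate 3 left out, 3 were higher and 6 lower at that level. Of the 30 differences 22 were negative, against 9515 of 13071 over all features. In every library 10 lay below and 3 above, against 11.8% and 2.72% of all features. The median was -0.12, against -0.088 over all features. Without Ctrl+IGF1 replicate 3 it was -0.062, against -0.024. CCN2, a matricellular growth factor modulator, was at 220.3, 258 and 192 TPM in Ctrl+IGF1 libraries, against 292, 315 and 314 TPM in Ctrl libraries, and the difference was -0.47 (adjusted p = 0.673). CCN1, its close relative, averaged 926 ± 43.7 TPM in Ctrl+IGF1 and 1127 ± 23.4 TPM in Ctrl libraries (SD, n = 3 each here and below), a difference of -0.28 (adjusted p = 0.673). Both of these groups were apart, with Ctrl+IGF1 lower. The AP-1 members with the highest levels were closer between groups. FOSL1 averaged 777 ± 69.9 TPM in Ctrl+IGF1 and 803 ± 19.6 TPM in Ctrl libraries (difference -0.052), and JUN averaged 136 ± 5.04 TPM in Ctrl+IGF1 and 150.1 ± 4.43 TPM in Ctrl libraries (difference -0.14). MYC, a driver of growth gene transcription, was at 133, 150.2 and 119 TPM in Ctrl+IGF1 libraries, against 149, 152 and 151 TPM in Ctrl libraries, which overlapped, with a difference of -0.18 (95% interval -0.37 to 0.017, adjusted p = 0.673). KLF6, a zinc finger factor that belongs to the FOXO list as well, was at 70.3, 79.3 and 51.6 TPM in Ctrl+IGF1 libraries, against 81.0, 85.3 and 81.5 TPM in Ctrl libraries. Replicate 3 had its lowest value, and the difference of -0.32 (adjusted p = 0.673) was -0.14 without it.

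SRSF1, an SR protein that binds exonic enhancers and guides splice site choice, had 164, 133 and 114 TPM in Ctrl+IGF1 libraries, against 258, 252 and 264 TPM in Ctrl libraries. Every Ctrl+IGF1 library was lower, and SRSF1 fell by 0.92 on the log2 scale (SE 0.13, adjusted p = 0.0425). A same-strand feature, ENSG00000266086, overlaps SRSF1 in GENCODE v29, and reads could be split between them. It had 146, 179.9 and 168 TPM in Ctrl+IGF1 libraries, against 111, 105 and 91.4 TPM in Ctrl libraries, so its Ctrl+IGF1 libraries were all higher (difference 0.68, adjusted p = 0.447). Summed, the pair had 310.1, 313 and 282 TPM in Ctrl+IGF1 libraries, against 369, 357 and 355 TPM in Ctrl libraries, a difference of -0.26 that did not pass (adjusted p = 0.663) when the sum was fitted as 1 feature. SRSF1 took 52.97, 42.5 and 40.3% of that sum in Ctrl+IGF1 libraries and 69.9, 70.7 and 74.3% in Ctrl libraries (p = 0.1 by a two-sided exact permutation test, its minimum for 3 against 3 libraries). In the 6 TMEM216 libraries the share lay between 40.6% and 57.9%, so the Ctrl libraries were the highest of the 12. The difference in SRSF1 was thus larger than that in the sum, and whether the shares differ in the transcripts or in the estimate was not tested.

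**Figure D2:**
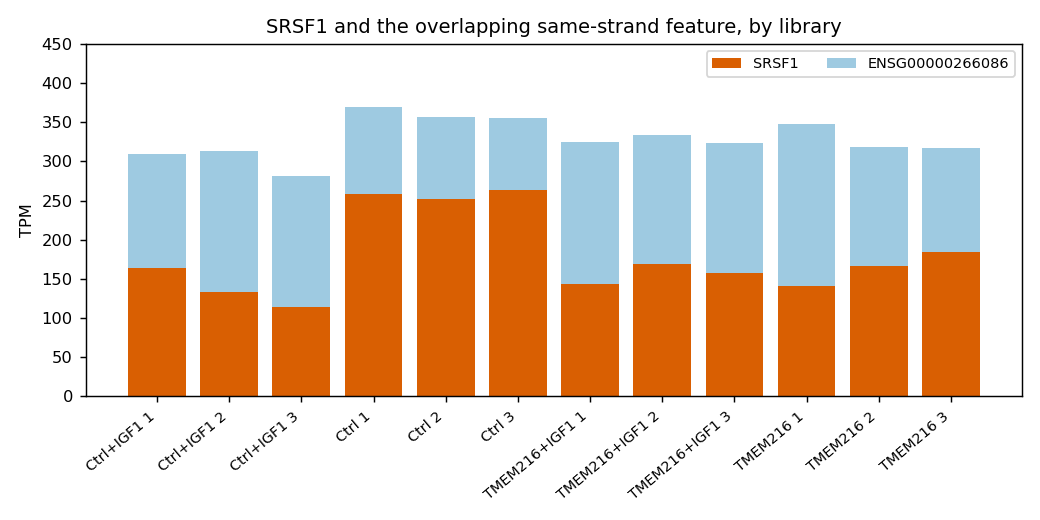
TPM (vertical axis) of SRSF1 and, stacked on it, of the overlapping feature ENSG00000266086 in each of the 12 libraries (horizontal axis). The SRSF1 part is 114 to 164 TPM in the Ctrl+IGF1 libraries and 252 to 264 TPM in the Ctrl libraries, while the stacks reach 282 to 313 TPM and 355 to 369 TPM.

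PLLP encodes plasmolipin, a membrane protein of myelin and of epithelia. It had 4.46, 2.99 and 2.76 TPM in Ctrl+IGF1 libraries, against 7.51, 7.42 and 7.82 TPM in Ctrl libraries. The Ctrl libraries were close together and all above the Ctrl+IGF1 libraries, and PLLP fell by 0.98 on the log2 scale (SE 0.14, adjusted p = 0.0477). FOSB and PLLP overlap ERCC1 and ARL2BP on the opposite strand, and the sources used here do not say if strand was kept. ERCC1, a DNA repair gene, averaged 165 ± 4.53 TPM in Ctrl+IGF1 and 167 ± 4.20 TPM in Ctrl libraries, and ARL2BP averaged 49.0 ± 6.76 TPM in Ctrl+IGF1 and 42.5 ± 10.8 TPM in Ctrl libraries, and both overlapped between groups. The fourth feature, ENSG00000273049, was chosen for mention after its values were seen, since its mean lay under the naming minimum of 5 TPM. It was listed at 0 in the 3 Ctrl+IGF1 libraries and the 6 TMEM216 libraries, against 1.90, 2.94 and 3.49 TPM in Ctrl libraries (adjusted p = 0.00230). It passed the low-value filter only through the Ctrl libraries. It overlaps HOXC genes on the same strand, and the 6 HOXC genes summed to 7.32, 6.51 and 9.99 TPM in Ctrl+IGF1 and 7.22, 7.93 and 7.48 TPM in Ctrl libraries, which overlapped (two-sided exact permutation test, p = 0.9).

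The calls of FOSB, SRSF1 and PLLP were close to the threshold, and most single libraries decided them. Over the 6 fits that each left out 1 library, the log2 difference of FOSB lay between -1.38 and -1.11. Its call was kept without Ctrl+IGF1 replicate 2 (adjusted p = 0.0122) and lost without each of the other 5 libraries (0.062 to 0.296). The log2 difference of SRSF1 lay between -1.06 and -0.80, and the log2 difference of PLLP between -1.15 and -0.88. Both calls were kept without Ctrl+IGF1 replicate 1 (adjusted p = 0.00613 each) and lost without each of the other 5 libraries (0.0916 to 0.333 for SRSF1 and 0.122 to 0.381 for PLLP). Fitted on the 6 compared libraries alone, FOSB, SRSF1 and PLLP lost their calls (adjusted p = 0.234, 0.234 and 0.466), as did ENSG00000273049 (0.0900), and 1 other feature was called, higher.

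Besides FOS, 4 genes with a mean of at least 5 TPM had the next smallest p-values among lower levels, none past the threshold. TFPI, an inhibitor of tissue factor in coagulation, had 55.7, 59.2 and 46.8 TPM in Ctrl+IGF1 libraries, against 74.9, 82.1 and 81.9 TPM in Ctrl libraries (difference -0.56, adjusted p = 0.125). EDN1, the precursor of the vasoconstrictor endothelin 1, had 44.9, 47.3 and 44.5 TPM in Ctrl+IGF1 libraries, against 60.5, 61.0 and 59.9 TPM in Ctrl libraries, a narrow spread in both groups (difference -0.40, adjusted p = 0.317). SAA2, an acute phase protein whose gene overlaps the SAA2-SAA4 readthrough feature, averaged 13.8 ± 1.81 TPM in Ctrl+IGF1 and 20.5 ± 2.57 TPM in Ctrl libraries (difference -0.54). CLK1, a kinase that phosphorylates SR proteins, averaged 60.7 ± 5.45 TPM in Ctrl+IGF1 and 87.8 ± 4.44 TPM in Ctrl libraries (difference -0.53, adjusted p = 0.506). For each of these 4 genes every Ctrl+IGF1 library lay below every Ctrl library. On the higher side the smallest p-values, besides the feature that overlaps SRSF1, belonged to 4 genes that also did not overlap between groups. S100A2, a calcium-binding protein, averaged 89.6 ± 9.32 TPM in Ctrl+IGF1 and 68.5 ± 1.95 TPM in Ctrl libraries (difference 0.38, adjusted p = 0.447). CXCL3, a neutrophil chemokine, averaged 59.8 ± 3.23 TPM in Ctrl+IGF1 and 44.3 ± 2.19 TPM in Ctrl libraries (difference 0.42), and IFI6, an interferon-induced mitochondrial protein, averaged 21.2 ± 1.56 TPM in Ctrl+IGF1 and 15.6 ± 1.71 TPM in Ctrl libraries (difference 0.43). RPL11, a protein of the large ribosomal subunit, had 1352, 1114 and 1381 TPM in Ctrl+IGF1 libraries, against 1006, 892 and 988 TPM in Ctrl libraries, with replicate 2 lowest within each group (difference 0.41, adjusted p = 0.447). It passed on leaving out Ctrl+IGF1 replicate 2 (difference 0.51, adjusted p = 0.0473).

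At the top of the pathway, IGF1, IGF2 and INS transcripts did not pass the filter on low values. IGF1 reached at most 0.121 TPM in any of the 6 libraries and INS was listed at 0. IGF1R, the receptor, had 8.30, 9.06 and 6.16 TPM in Ctrl+IGF1 libraries, against 10.2, 10.5 and 11.3 TPM in Ctrl libraries. Its Ctrl+IGF1 libraries were all lower, with replicate 3 the lowest, and the difference of -0.41 (95% interval -0.70 to -0.12) did not pass (adjusted p = 0.673). Without replicate 3 it was -0.27. INSR, the insulin receptor, which forms hybrids with IGF1R, had 2.80, 2.89 and 3.03 TPM in Ctrl+IGF1 libraries, against 4.24, 4.09 and 3.92 TPM in Ctrl libraries. That difference was -0.38 (95% interval -0.63 to -0.12, adjusted p = 0.673) and -0.40 without replicate 3. IGF2R, which clears IGF2, averaged 31.5 ± 5.31 TPM in Ctrl+IGF1 and 31.4 ± 5.28 TPM in Ctrl libraries. The docking proteins overlapped between groups. IRS1 had 28.9, 33.6 and 23.5 TPM in Ctrl+IGF1 libraries, against 33.3, 32.2 and 31.8 TPM in Ctrl libraries (difference -0.19, 95% interval -0.48 to 0.10), and IRS2 had 7.59, 9.23 and 6.79 TPM in Ctrl+IGF1 libraries, against 9.08, 8.56 and 9.55 TPM in Ctrl libraries (difference -0.19, 95% interval -0.47 to 0.087). SOCS2, a feedback inhibitor of cytokine and growth hormone signalling, averaged 22.6 ± 0.725 TPM in Ctrl+IGF1 and 26.7 ± 1.07 TPM in Ctrl libraries (difference -0.23, adjusted p = 0.673). Of 21 listed ligands, receptors and substrates, 16 were tested and 0 passed by limma. Of these, 2 had an unadjusted p below 0.05, both lower, against 5.67% of all features. The median was -0.17, -0.084 after median-of-ratios scaling and -0.092 without replicate 3.

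The secreted IGF binding proteins, which hold IGFs in complexes and limit or prolong their action, form a list with the proteases that cleave them, and 4 of the 12 tested members lay below the Ctrl libraries in every Ctrl+IGF1 library, against 11.8% of all features. IGFBP3, the main serum carrier, had 49.0, 50.2 and 45.0 TPM in Ctrl+IGF1 libraries, against 59.2, 61.5 and 60.9 TPM in Ctrl libraries. The groups were apart, and the difference of -0.33 (95% interval -0.49 to -0.17) did not pass (adjusted p = 0.506). IGFBP1, a classical target repressed by insulin through FOXO1 in liver, had 33.7, 35.0 and 32.1 TPM in Ctrl+IGF1 libraries, against 46.3, 45.2 and 48.4 TPM in Ctrl libraries, again apart (difference -0.46, 95% interval -0.70 to -0.22, adjusted p = 0.564). IGFBP7, a low-affinity relative, averaged 254 ± 4.38 TPM in Ctrl+IGF1 and 287 ± 7.90 TPM in Ctrl libraries (difference -0.17). PAPPA, a protease that cleaves IGFBP4 and frees IGF, averaged 4.67 ± 1.16 TPM in Ctrl+IGF1 and 5.99 ± 0.0890 TPM in Ctrl libraries, with replicate 3 lowest, and HTRA1, a secreted serine protease, averaged 24.1 ± 1.54 TPM in Ctrl+IGF1 and 26.6 ± 2.49 TPM in Ctrl libraries. Of 14 listed genes 12 were tested, 0 passed, and 3 had an unadjusted p below 0.05, all lower, against 5.67% of all features. The median was -0.13, and -0.11 without replicate 3.

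**Figure D3:**
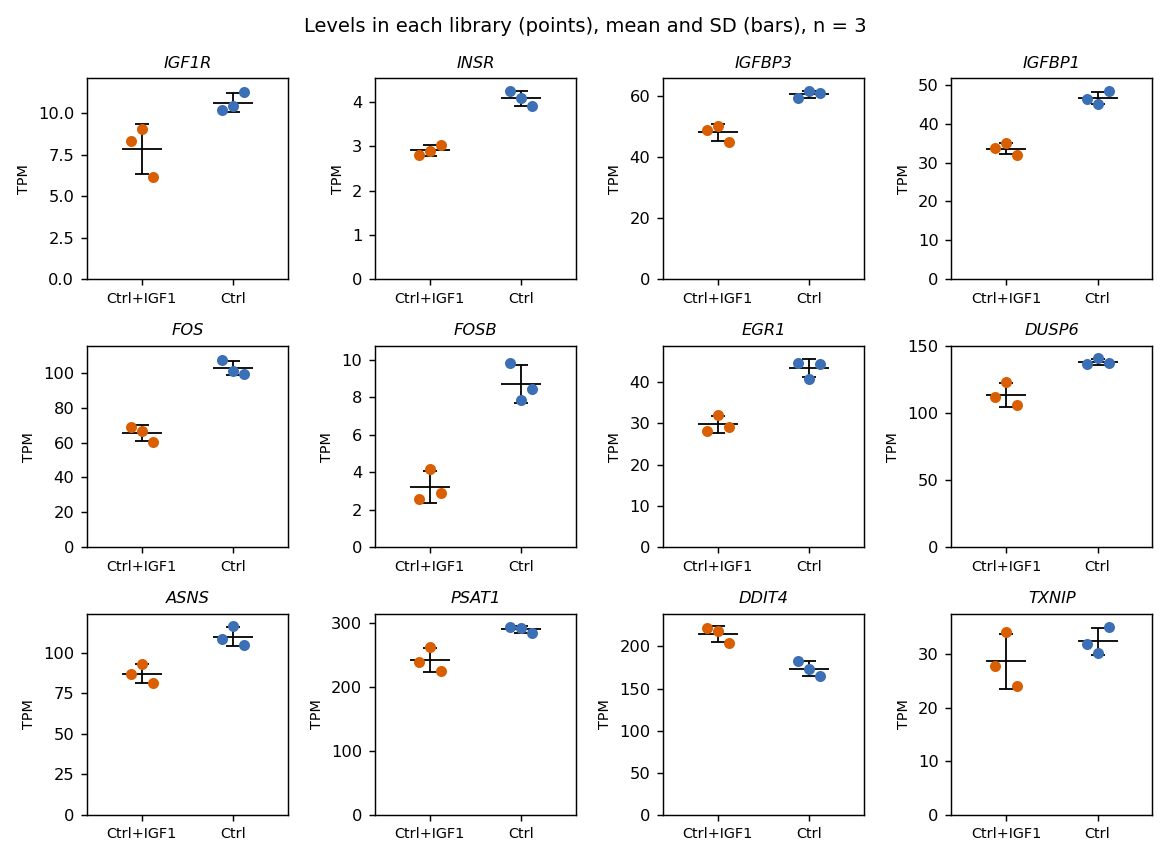
TPM (vertical axes, from 0) of 12 pathway genes in the Ctrl+IGF1 (orange, left) and Ctrl (blue, right) libraries, with points for libraries, long bars for means and whiskers for SD (n = 3 each). IGF1R, INSR, IGFBP3, IGFBP1, FOS, FOSB, EGR1, DUSP6, ASNS and PSAT1 lie lower and DDIT4 higher in every Ctrl+IGF1 library, TXNIP overlaps, and FOSB alone of the 12 passed the threshold. Over all features 11.8% lay lower and 2.72% higher in this way. The 12 do not stand for the whole pathway. Of always-named genes not shown, IRS1, IRS2, SPRY4, MYC, SESN2, SCD and HMGCS1 overlapped, while KLF6 and CCND1 were lower in every Ctrl+IGF1 library.

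PI3K, AKT and the FOXO factors that AKT holds in the cytoplasm had no member past the threshold. TBC1D4, the AKT substrate that controls glucose transporter traffic, averaged 10.3 ± 1.24 TPM in Ctrl+IGF1 and 13.3 ± 0.856 TPM in Ctrl libraries (difference -0.35), and PIK3CD, a catalytic subunit of PI3K, averaged 22.3 ± 2.03 TPM in Ctrl+IGF1 and 26.2 ± 2.38 TPM in Ctrl libraries (difference -0.22). AKT1S1, the AKT substrate PRAS40 that restrains mTORC1, went the other way and averaged 92.3 ± 2.27 TPM in Ctrl+IGF1 and 78.6 ± 4.64 TPM in Ctrl libraries (difference 0.23, adjusted p = 0.673). AKT2 averaged 104 ± 24.8 TPM in Ctrl+IGF1 and 123 ± 8.26 TPM in Ctrl libraries, with 1 low library, replicate 3. Of 20 tested components of 23 listed, 0 passed. At an unadjusted p below 0.05, 1 was higher and 3 lower, against 1.22% and 5.67% of all features. Their median was -0.15. Without replicate 3 it was -0.077, with 1 higher and 1 lower at that level.

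FOXO targets are repressed by insulin and IGF1 in many tissues. TXNIP, an inhibitor of glucose uptake, had 27.8, 34.1 and 24.0 TPM in Ctrl+IGF1 libraries, against 31.9, 30.1 and 35.1 TPM in Ctrl libraries, which overlapped (difference -0.18, 95% interval -0.51 to 0.14). CCNG2, an unconventional cyclin linked to cell cycle arrest, had 7.94, 8.57 and 7.85 TPM in Ctrl+IGF1 libraries, against 9.59, 10.7 and 11.0 TPM in Ctrl libraries, without overlap (difference -0.33, adjusted p = 0.673). BCL6, a transcriptional repressor, averaged 14.4 ± 1.49 TPM in Ctrl+IGF1 and 17.5 ± 0.924 TPM in Ctrl libraries (difference -0.27). ATG14, an autophagy factor, averaged 20.5 ± 4.21 TPM in Ctrl+IGF1 and 25.4 ± 0.995 TPM in Ctrl libraries, and CDKN1B, the cyclin-dependent kinase inhibitor p27, averaged 56.6 ± 4.66 TPM in Ctrl+IGF1 and 64.4 ± 0.812 TPM in Ctrl libraries (difference -0.19), while INSR, also a member, is given above. The autophagy gene rested on replicate 3, with a difference of -0.32 and -0.15 without it. PIK3IP1, a PI3K inhibitor and FOXO target, stayed under the filter, at 0.180 to 0.512 TPM in Ctrl+IGF1 and 0.339 to 0.535 TPM in Ctrl libraries. Of 33 listed genes 27 were tested, 0 passed, and 5 had an unadjusted p below 0.05, all lower, against 5.67% of all features. Of the 27 differences 23 were negative, against 9515 of 13071 over all features. The median of -0.16 was -0.094 after median-of-ratios scaling and -0.10 without replicate 3, where 2 members had an unadjusted p below 0.05.

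Along the MAP kinase branch the feedback inhibitors of ERK, whose transcripts follow ERK activity in many cells, had no member past the threshold. DUSP6, the phosphatase of ERK, had 112, 123 and 106 TPM in Ctrl+IGF1 libraries, against 137, 141 and 137 TPM in Ctrl libraries. The groups were apart, and the difference of -0.29 (95% interval -0.47 to -0.10) did not pass (adjusted p = 0.673). SPRY4, a Sprouty inhibitor, had 89.7, 96.3 and 76.1 TPM in Ctrl+IGF1 libraries, against 91.1, 92.7 and 92.7 TPM in Ctrl libraries, which overlapped (difference -0.082, 95% interval -0.26 to 0.098, with the sign turned at 0.0070 after median-of-ratios scaling). SPRY1 averaged 40.1 ± 4.47 TPM in Ctrl+IGF1 and 50.7 ± 3.81 TPM in Ctrl libraries (difference -0.33). CCND1, the G1 cyclin D1, which overlaps LTO1 on the opposite strand, had 407, 430.0 and 320.1 TPM in Ctrl+IGF1 libraries, against 446, 453 and 454 TPM in Ctrl libraries. Replicate 3 was lowest, and the difference of -0.24 (adjusted p = 0.673) was -0.11 without it. IL11, a cytokine of the IL6 family, averaged 429 ± 39.2 TPM in Ctrl+IGF1 and 369 ± 15.0 TPM in Ctrl libraries, all Ctrl+IGF1 libraries higher (difference 0.21, adjusted p = 0.673). Of 29 tested feedback and late output genes, 0 passed. At an unadjusted p below 0.05, 1 was higher and 3 lower, against 1.22% and 5.67% of all features. Their median of -0.054 turned to 0.035 after median-of-ratios scaling. Without replicate 3 it was -0.013, with 0 higher and 2 lower at that level.

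Among the 24 MAPK components 0 passed and 2 were lower at an unadjusted p below 0.05. RPS6KA2, a kinase activated by ERK, had 1.79, 1.75 and 1.77 TPM in Ctrl+IGF1 libraries, against 2.91, 3.24 and 2.78 TPM in Ctrl libraries (difference -0.52, adjusted p = 0.673). The Ctrl+IGF1 values were almost equal, and the difference without replicate 3 was -0.52. ELK4, an SRF partner that ERK phosphorylates, averaged 19.5 ± 2.68 TPM in Ctrl+IGF1 and 24.0 ± 0.182 TPM in Ctrl libraries (difference -0.29), and MAPK3, which encodes ERK1, averaged 35.8 ± 2.86 TPM in Ctrl+IGF1 and 42.0 ± 1.91 TPM in Ctrl libraries (difference -0.23). The list of receptor tyrosine kinases, 16 tested of 23, had 0 past the threshold and a median of -0.12 (-0.042 without replicate 3). Its 2 members that were lower at an unadjusted p below 0.05 were IGF1R and INSR, given above. ERBB3, a HER family receptor repressed by AKT signalling in breast cancer cells, averaged 2.59 ± 0.453 TPM in Ctrl+IGF1 and 4.09 ± 1.30 TPM in Ctrl libraries (difference -0.48), and EGFR averaged 60.2 ± 12.4 TPM in Ctrl+IGF1 and 73.6 ± 2.44 TPM in Ctrl libraries (difference -0.31, -0.14 without replicate 3).

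Of the mTOR pathway, DDIT4, an inhibitor of mTORC1 induced by stress and glucocorticoids, had 222, 219 and 204 TPM in Ctrl+IGF1 libraries, against 183, 173 and 165 TPM in Ctrl libraries. Every Ctrl+IGF1 library was higher, but the difference of 0.31 (95% interval 0.14 to 0.48) did not pass (adjusted p = 0.659), and it was 0.34 without replicate 3. DDIT4L, its paralog, averaged 2.39 ± 0.0543 TPM in Ctrl+IGF1 and 3.40 ± 0.386 TPM in Ctrl libraries, lower in every Ctrl+IGF1 library (difference -0.38, adjusted p = 0.673). SESN2, a leucine sensor, had 16.9, 16.8 and 16.3 TPM in Ctrl+IGF1 libraries, against 15.3, 15.0 and 17.7 TPM in Ctrl libraries, which overlapped (difference 0.060). RICTOR, the defining subunit of mTORC2, averaged 16.3 ± 3.41 TPM in Ctrl+IGF1 and 19.4 ± 1.34 TPM in Ctrl libraries, and TSC1, part of the complex that turns mTORC1 off, averaged 17.0 ± 1.61 TPM in Ctrl+IGF1 and 19.4 ± 0.0762 TPM in Ctrl libraries. Of 31 tested components 0 passed, 2 were higher and 1 lower at an unadjusted p below 0.05, and the median was -0.018 as deposited and 0.069 after median-of-ratios scaling.

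mTORC1 raises ATF4 and, through it, amino acid synthesis and transport. ASNS, asparagine synthetase, had 87.1, 93.0 and 81.1 TPM in Ctrl+IGF1 libraries, against 109, 116 and 105 TPM in Ctrl libraries. The groups were apart with Ctrl+IGF1 lower (difference -0.34, 95% interval -0.50 to -0.17, adjusted p = 0.506). PSAT1, an enzyme of serine synthesis, had 239, 263 and 226 TPM in Ctrl+IGF1 libraries, against 294, 293 and 284 TPM in Ctrl libraries, also apart (difference -0.26, adjusted p = 0.673). PCK2, the mitochondrial PEP carboxykinase, averaged 38.8 ± 2.36 TPM in Ctrl+IGF1 and 46.8 ± 1.85 TPM in Ctrl libraries (difference -0.27), and SLC7A5, a leucine transporter, averaged 334 ± 30.9 TPM in Ctrl+IGF1 and 388 ± 11.0 TPM in Ctrl libraries (difference -0.22). JDP2, an AP-1 repressor, had 19.7, 6.27 and 8.81 TPM in Ctrl+IGF1 libraries, against 25.9, 21.7 and 16.9 TPM in Ctrl libraries, a wide spread with overlap (difference -0.96, adjusted p = 0.673). Of 32 tested members 0 passed by limma. At an unadjusted p below 0.05, 1 was higher and 7 lower, against 1.22% and 5.67% of all features. The median was -0.13, and -0.084 without replicate 3. CHAC1, which degrades glutathione and was named after its value was seen, was the higher member (difference 0.41). Aminoacyl-tRNA synthetases, 20 tested, had 0 past the threshold, 1 lower at an unadjusted p below 0.05, MARS1 (difference -0.21), and a median of -0.14. Without replicate 3 the median of the synthetases was -0.050, with 0 lower at that level.

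Ribosomal protein genes, whose mRNAs mTOR regulates mainly in translation, were the list with the highest median. Of 79 tested members 0 passed, and 10 had an unadjusted p below 0.05, all higher, against 1.22% of all features. Of the 79 differences 74 were positive, against 3555 of 13071 over all features. The median of 0.18 was 0.044 without Ctrl+IGF1 replicate 3, 0.27 after median-of-ratios scaling and 0.083 after quantile normalization. Without that library 1 member was higher and 1 lower at an unadjusted p below 0.05. RPL28, a protein of the large subunit, had 891, 829 and 1090.2 TPM in Ctrl+IGF1 libraries, against 714, 737 and 727 TPM in Ctrl libraries (difference 0.36, 0.24 without replicate 3). RPL35A, another, had 1710.2, 1253 and 1981 TPM in Ctrl+IGF1 libraries, against 1362, 1285 and 1181 TPM in Ctrl libraries, which overlapped (difference 0.35, 0.20 without it). Ribosome biogenesis genes (33 tested) and translation factors (24 tested) had 0 past the threshold and medians of 0.020 and -0.034, the second of which turned to 0.056 after median-of-ratios scaling. At an unadjusted p below 0.05, 1 biogenesis gene, NOLC1, a nucleolar chaperone, was lower (difference -0.36), and 0 translation factors stood out. The biogenesis median was 0.11 after median-of-ratios scaling and 0.069 without replicate 3, where 0 biogenesis genes were lower at that level. In every library 5 biogenesis genes lay above and 1 below, against 2.72% and 11.8% of all features.

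Metabolic programmes that AKT and mTOR drive through SREBP and HIF1 had no member past the threshold. SCD, a fatty acid desaturase, had 29.8, 32.8 and 21.7 TPM in Ctrl+IGF1 libraries, against 27.0, 26.7 and 29.2 TPM in Ctrl libraries. These overlapped, and the 95% interval of the difference was -0.30 to 0.31. HMGCS1, the enzyme that makes HMG-CoA, had 20.1, 28.0 and 19.0 TPM in Ctrl+IGF1 libraries, against 29.3, 28.4 and 25.2 TPM in Ctrl libraries (difference -0.31, 95% interval -0.67 to 0.041). Of 25 cholesterol genes 0 passed and 0 had an unadjusted p below 0.05, with a median of -0.091. Of 21 fatty acid genes 0 passed and 1, ELOVL7, a fatty acid elongase, was lower at an unadjusted p below 0.05 (difference -0.29), with a median of -0.11. Without replicate 3 the medians of the cholesterol and fatty acid lists were -0.0088 and -0.028, with 0 lower in either. Glycolysis (21 genes) had 0 past the threshold and 0 with an unadjusted p below 0.05, and its median of -0.063 turned to 0.025 after median-of-ratios scaling and 0.037 without replicate 3. Hypoxia genes were mixed, with 0 of 20 past the threshold. At an unadjusted p below 0.05, 3 of them were higher and 3 lower, against 1.22% and 5.67% of all features. Without replicate 3, 4 were higher and 2 lower at that level. ANGPTL4, an inhibitor of lipoprotein lipase, averaged 12.3 ± 0.797 TPM in Ctrl+IGF1 and 9.12 ± 1.04 TPM in Ctrl libraries, and LOX, which crosslinks collagen, averaged 29.7 ± 4.58 TPM in Ctrl+IGF1 and 38.3 ± 1.03 TPM in Ctrl libraries (differences 0.40 and -0.36). Lysosome and autophagy genes under TFEB, 35 tested, had 0 past the threshold, 2 lower at an unadjusted p below 0.05, CTSF and TPP1, both lysosomal proteases, and a median of -0.13. Without replicate 3 that median was -0.046, with 1 higher and 1 lower at that level.

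**Figure D4:**
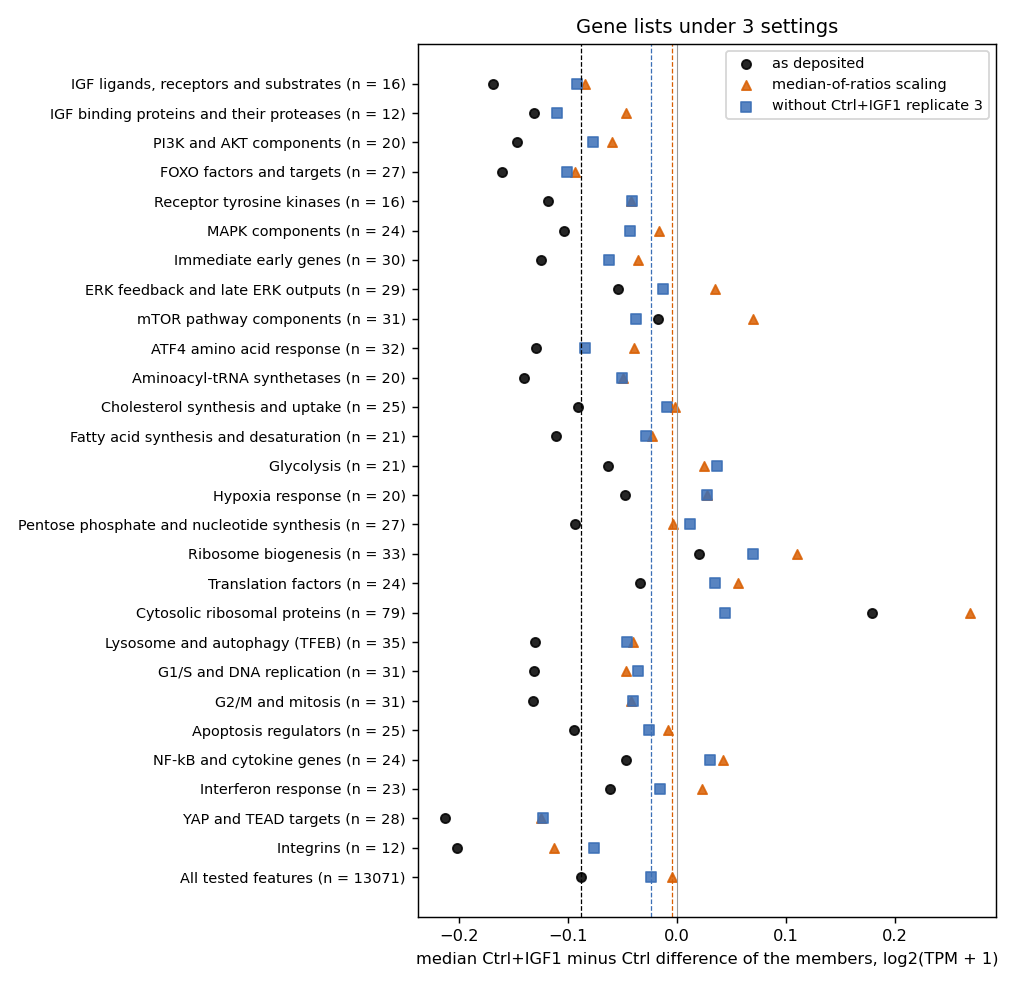
Median difference between Ctrl+IGF1 and Ctrl libraries (horizontal axis, log2(TPM + 1)) of the tested members of each gene list (rows, n members), as deposited (circles), after median-of-ratios scaling (triangles) and without Ctrl+IGF1 replicate 3 (squares), with dashed lines at the medians of all features. Nearly all circles lie left of 0 near the median of all features (-0.088), ribosomal protein genes lie at 0.18, and YAP and TEAD targets at -0.21.

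Cell cycle genes, a downstream target of IGF1 as a mitogen, stood near the median of all features. Of 31 genes of G1/S and DNA replication 0 passed and 3 were lower at an unadjusted p below 0.05, among them CDK2 (difference -0.19), with a median of -0.13. Of 31 genes of G2/M and mitosis 0 passed and 3 were lower at an unadjusted p below 0.05, among them CDC25C, a phosphatase that starts mitosis, which averaged 36.2 ± 6.16 TPM in Ctrl+IGF1 and 47.7 ± 3.04 TPM in Ctrl libraries (difference -0.40, adjusted p = 0.673), and KIF23, a kinesin of cytokinesis (difference -0.23). Their median was -0.13. Without replicate 3 the medians were -0.035 and -0.040, and 0 and 2 members were lower at that level. Apoptosis regulators, 25 tested, had 0 past the threshold, 2 lower at an unadjusted p below 0.05 and a median of -0.095. Without replicate 3 that median was -0.025, with 0 lower at that level. The unfolded protein response, NRF2 target and p53 target lists, with 25, 23 and 22 tested members, also had 0 past the threshold. At an unadjusted p below 0.05 they held 1 lower member in all, SLC7A11, the cystine transporter. SLC7A11 averaged 27.9 ± 6.89 TPM in Ctrl+IGF1 and 36.4 ± 1.19 TPM in Ctrl libraries (difference -0.40). Without replicate 3 these lists held 0 lower members at that level.

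YAP and TEAD targets, a readout of the Hippo pathway and of adhesion, had the lowest median of the lists in the plot of list medians, at -0.21 over 28 members, -0.12 after median-of-ratios scaling and -0.12 without replicate 3. The markers of mesenchymal triple-negative lines, which that plot leaves out, had a median of -0.22 over 11 members, 3 of them lower at an unadjusted p below 0.05. Without replicate 3 these markers had a median of -0.12, with 1 lower at that level. Of the 28 YAP and TEAD targets 0 passed by limma. At an unadjusted p below 0.05, 11 of these targets were lower, against 5.67% of all features, and 12 lay below in every library, against 11.8%. Without replicate 3, 6 were lower, against 324 of 13071 features. CCN1, CCN2 and IGFBP3, given above, belong to the YAP and TEAD list. ANKRD1, a mechanosensitive cofactor, had 457, 461 and 418 TPM in Ctrl+IGF1 libraries, against 508, 521 and 525 TPM in Ctrl libraries. AMOTL2, an angiomotin that binds YAP, had 91.1, 98.0 and 84.6 TPM in Ctrl+IGF1 libraries, against 111, 108 and 109.5 TPM in Ctrl libraries. Both were lower in every Ctrl+IGF1 library (differences -0.22 and -0.26, adjusted p = 0.673 each). Without the members shared with other lists, 23 YAP and TEAD targets remained, with a median of -0.18. Of these 23, 8 were lower at an unadjusted p below 0.05, against 5.67% of all features. Their median was -0.092 after median-of-ratios scaling and -0.11 without replicate 3, where 3 were lower at that level. All 12 tested integrins of 19 listed had negative differences, against 9515 of 13071 features, and 0 passed. Their median was -0.20, -0.11 after median-of-ratios scaling and -0.076 without replicate 3. At an unadjusted p below 0.05, 4 integrins were lower, against 5.67% of all features. Without replicate 3, 2 integrins were lower, against 324 of 13071 features. The median deviation of the integrins from the Ctrl mean was -0.16, 0.043 and -0.42 in Ctrl+IGF1 replicates 1, 2 and 3. Over all features it was -0.060, 0.0105 and -0.21. ITGB4, which pairs with the alpha 6 chain as a laminin receptor, had 47.7, 50.5 and 45.2 TPM in Ctrl+IGF1 libraries, against 58.0, 57.2 and 57.2 TPM in Ctrl libraries (difference -0.26), and ITGB2, known from leukocytes, averaged 9.20 ± 0.392 TPM in Ctrl+IGF1 and 11.3 ± 0.744 TPM in Ctrl libraries (difference -0.27). Of 30 collagen and matrix genes 0 passed and 3 were lower at an unadjusted p below 0.05, among them COL6A2, a chain of collagen VI (difference -0.18). Without replicate 3, 0 of these matrix genes were lower at that level.

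The cytokine and interferon lists held members with higher values. CXCL3, IL6 and IL11 were the 3 of 24 NF-kB and cytokine genes with an unadjusted p below 0.05, all higher, and 0 passed. Over all features 1.22% were higher at that level. Of the 24 differences 13 were negative, against 9515 of 13071 over all features. The median of this list, -0.047, turned to 0.042 after median-of-ratios scaling. In every library 4 of its members lay above and 3 below, against 2.72% and 11.8% of all features. IL6, an inflammatory cytokine, had 222, 210.2 and 232 TPM in Ctrl+IGF1 libraries, against 193, 200.1 and 192 TPM in Ctrl libraries, without overlap (difference 0.18, adjusted p = 0.673). Of 23 interferon genes 0 passed. At an unadjusted p below 0.05, 4 were higher, IFI6, OASL, ISG15 and IFIT1, against 1.22% of all features. OASL, an antiviral relative of the oligoadenylate synthetases, had 40.4, 40.2 and 41.5 TPM in Ctrl+IGF1 libraries, against 34.7, 29.1 and 26.3 TPM in Ctrl libraries. ISG15, a ubiquitin-like protein, had 234, 201 and 294 TPM in Ctrl+IGF1 libraries, against 199, 173 and 171 TPM in Ctrl libraries, with replicate 3 highest. Their differences were 0.44 and 0.41, and 0.42 and 0.27 without replicate 3. Over the whole interferon list 14 of 23 differences were negative, against 9515 of 13071 over all features. Its median of -0.062 turned to 0.023 after median-of-ratios scaling.

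The response was then set beside that of TMEM216 cells, which were sequenced in the same design and share no library with this comparison. There 2 of 13071 features passed (0.0153%), FOS among them, and 624 had an unadjusted p below 0.05 (4.77%). Over all features the differences in the 2 populations had a Pearson r of 0.0127, a description across genes of 2 sets of 6 libraries each. Of the 741 features lower in Ctrl+IGF1 at an unadjusted p below 0.05, 425 (57.4%) were lower in TMEM216+IGF1, against 43.9% of all features. Of the 159 higher ones, 85 (53.5%) were higher there, against 56.1%. The test of the difference between the responses, TMEM216 minus Ctrl, called 2 features (0.0153%), FOS and ENSG00000273049, the low feature seen only in Ctrl libraries, and 703 had an unadjusted p below 0.05 (5.38%).

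FOS had 11.3, 10.0 and 11.7 TPM in TMEM216+IGF1 libraries, against 76.4, 59.6 and 56.7 TPM in TMEM216 libraries. It fell there by 2.43 on the log2 scale (adjusted p = 5.24e-07), against a difference of -0.64 in Ctrl cells, and the responses differed by -1.79 (SE 0.15, adjusted p = 9.65e-04). FOSB was low in that population, with 0.790, 1.02 and 0.603 TPM in TMEM216+IGF1 and 1.61, 1.74 and 1.44 TPM in TMEM216 libraries. Its difference there was -0.53, and the difference between the responses of 0.69 did not pass (adjusted p = 0.754). EGR1 differed by -0.84 and EDN1 by -0.52 in TMEM216 cells (adjusted p = 0.0587 each), the same sign as in Ctrl cells. PLLP had 7.32, 6.15 and 7.49 TPM in TMEM216+IGF1 and 6.38, 5.62 and 5.79 TPM in TMEM216 libraries. SRSF1 had 144, 169.7 and 157 TPM in TMEM216+IGF1 and 141, 166 and 184 TPM in TMEM216 libraries. The responses of PLLP and SRSF1 differed between populations by 1.18 and 0.87 (adjusted p = 0.218 and 0.673), so no difference was called.

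**Figure D5:**
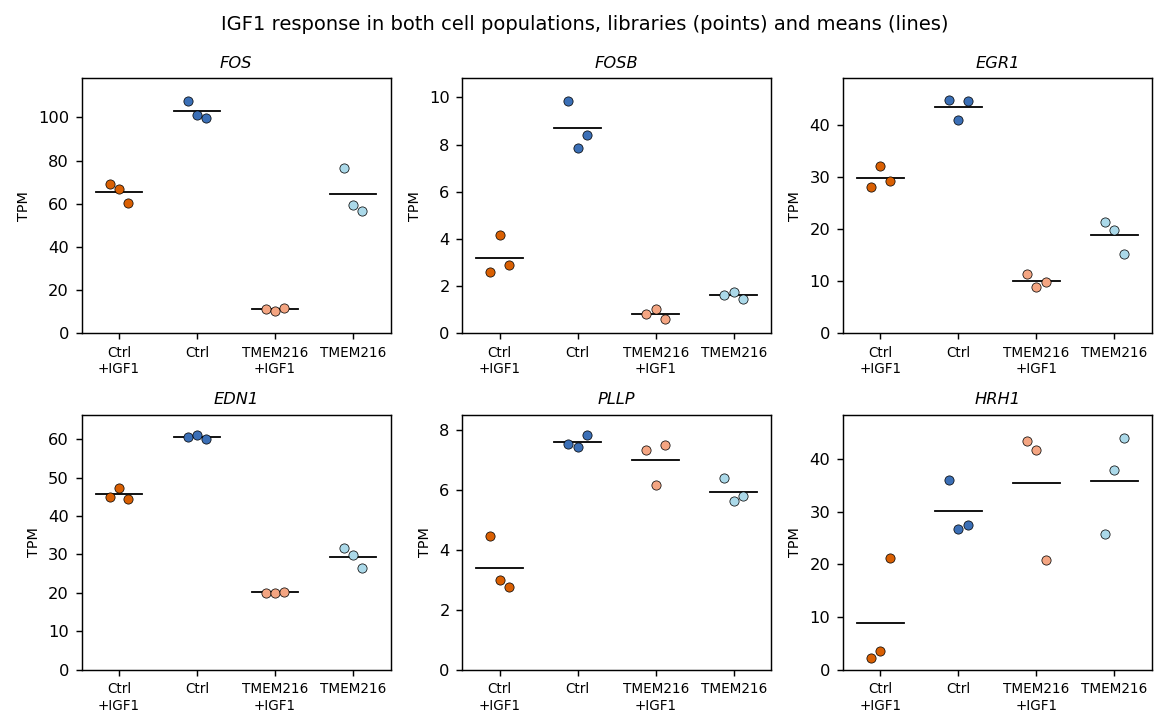
TPM (vertical axes, from 0) of 6 genes in Ctrl+IGF1, Ctrl, TMEM216+IGF1 and TMEM216 libraries (points, lines for means, n = 3 each). FOS lay at 60.5 to 69.2 TPM in Ctrl+IGF1 and 99.7 to 108 TPM in Ctrl libraries, and at 10.0 to 11.7 TPM in TMEM216+IGF1 and 56.7 to 76.4 TPM in TMEM216 libraries.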

How the data were processed

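RNA-seq of MDA-231-LM2 cells was analysed from 12 libraries in 4 groups of 3. The authors deposited TPM for 21574 features. The submitters' processing notes name StringTie, RSEM and HISAT2 without versions, and per the labels' protocols a TruSeq RNA kit was used on total RNA. The sources used here give no genome build, annotation or read depth. TPM holds no counts, so no count test was run, and a value of 0 may be a failed estimate. TPM is a share of each library, so a rise of abundant transcripts lowers the others.

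Values were analysed as log2(TPM + 1) with no added scaling. This scale understates the change of low genes. Features with at least 1 TPM in 3 or more of the 12 libraries were tested, 13071 in all, 519 of them assembled features without gene names. The 4 groups were fitted together with limma 3.58.1 in R 4.3.3, moderating the variances along their trend with the mean. Adjusted p is the two-sided Benjamini-Hochberg value over all 13071 features, with a threshold of 0.05. Intervals are 95% intervals from that fit, and SE is its moderated standard error. The code was tested on simulated data. Single values were compared by an exact permutation test (Python 3.11.15, numpy 2.4.6, pandas 2.3.3, scipy 1.17.1), and figures drawn with matplotlib 3.10.9.

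The comparison, the gene lists and their members were chosen with earlier results of these data known, so counts over a list are descriptions. Named genes were, in each direction, the 12 largest changes past the threshold that had a gene symbol, at least 5 TPM on average and no overlap between groups. Where fewer than 5 qualified in a direction, its 5 smallest p-values were added. IGF1R, INSR, IRS1, IRS2, IGFBP3, FOS, EGR1, DUSP6, SPRY4, CCND1, MYC, TXNIP, PIK3IP1, KLF6, DDIT4, SESN2, ASNS, PSAT1, SCD, HMGCS1 and TMEM216 were always named, with up to 5 members of each list by smallest p. Some genes that this rule takes are not reported here. IGFBP1, IGF1, IGF2, INS, IGF2R, FOSL1, JUN, ERCC1 and ARL2BP were added for context after their values were seen.

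For 52 genes GENCODE v29 was searched for overlapping tested features, and 17 had one. Promoter windows were read from RefSeq (GRCh38.p14). Alternatives were quantile normalization, a minimum of 5 TPM, no filter, a pseudocount of 0.1, median-of-ratios scaling, no trend, the 6 libraries alone, the replicate number as a block and leaving out each of the 6 libraries. Added after the data were seen were leaving out Ctrl+IGF1 replicate 3 and TMEM216 replicate 1 together, median-of-ratios scaling without Ctrl+IGF1 replicate 3, SRSF1 summed with its overlapping feature, and the YAP list without shared members.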

Additional observations from a re-analysis of the deposited data

Results flagged for a closer look

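The limma test of the difference between the responses of the cell populations called 2 of 13071 features, of which FOS was measured in all libraries. FOS was 65.5 ± 4.47 TPM in Ctrl+IGF1 and 103 ± 4.16 TPM in Ctrl libraries, and 11.0 ± 0.888 TPM in TMEM216+IGF1 and 64.3 ± 10.6 TPM in TMEM216 libraries (SD, n = 3 each). The IGF1 effect in TMEM216 cells minus that in Ctrl cells was -1.79 (adjusted p = 9.65e-04). It lay between -1.89 and -1.71 in the 16 alternatives run for it and passed in each, with adjusted p from 3.62e-04 to 0.00835.

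ENSG00000273049 was listed at 0 in all libraries except the 3 Ctrl libraries, at 1.90, 2.94 and 3.49 TPM. The fitted difference between the responses was 1.89 (adjusted p = 0.0445), a value that depends on the pseudocount. Since the feature passed the low-value filter only through the Ctrl libraries, this call does not show a difference in response. It passed in 4 of the 15 alternatives that could be fitted, with adjusted p from 0.00314 to 0.754. Of the 6 libraries left out in turn, the call was kept without Ctrl replicate 1 (adjusted p = 0.0132) and lost without each of the other 5 (0.0927 to 0.184).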

How the results depend on the processing

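The count of features past the threshold in Ctrl cells, 4 (0 higher, 4 lower), was 0 with a pseudocount of 0.1 and with a minimum of 5 TPM, 1 (lower) without a filter, and 2 (lower) after quantile normalization or with SRSF1 summed with its overlapping feature. It was 1 (1 higher, 0 lower) from the 6 libraries alone. Leaving out each library gave 1 to 5 (0 to 2 higher, 1 to 4 lower). Leaving out Ctrl+IGF1 replicate 3 and TMEM216 replicate 1 gave 5 (1 higher, 4 lower), and median-of-ratios scaling without Ctrl+IGF1 replicate 3 gave 3 (1 higher, 2 lower). The cause was not tested. FOSB passed in 4, SRSF1 in 4 and PLLP in 2 of 17 alternatives each, and ENSG00000273049 in 14 of 16, while FOS passed in 1 and RPL11 in 1 of 17. ENSG00000273049 was at 0 outside the Ctrl libraries and passed the low-value filter only through them. Its count of alternatives is therefore no sign of a firmer response, and its call was lost with a pseudocount of 0.1 (adjusted p = 0.110 by limma).

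With the replicate number as a block the count was 1 (0 higher, 1 lower) and that of the interaction 1. Deviations of same-numbered libraries had correlations of -0.0155, -0.0808 and -0.0951, against -0.0208 to 0.108 for the other pairs. With 3 libraries a group, such values cannot show whether same-numbered libraries were handled together, and the labels state no pairing.

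The interaction count of 2 was 1 with a pseudocount of 0.1, a minimum of 5 TPM, quantile normalization, median-of-ratios scaling, both added settings that leave out Ctrl+IGF1 replicate 3, and 1 to 3 on leaving out each library.

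Genes near 0 changed sign. SPRY4 ranged from -0.16 to 0.013 over the libraries left out, and was 0.0070 after median-of-ratios scaling, 0.013 without Ctrl+IGF1 replicate 3, alone or with TMEM216 replicate 1, and 0.036 with scaling and without replicate 3. SCD ranged from -0.11 to 0.17 over the libraries left out, including -0.012, -0.019 and -0.047. TMEM216 ranged from -0.013 to 0.14 over the libraries left out, and was -0.013 without Ctrl+IGF1 replicate 3 and TMEM216 replicate 1. With depth unknown, values near 1 TPM carry an error that the files do not show.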

Other observations

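HRH1, the histamine H1 receptor, was named after its values were seen. It had 2.14, 3.56 and 21.1 TPM in Ctrl+IGF1 libraries, against 36.0, 26.7 and 27.5 TPM in Ctrl libraries. Ctrl+IGF1 replicates 1 and 2 were far below replicate 3, and all 3 lay below the Ctrl libraries. The difference of -2.18 did not pass (adjusted p = 0.673), but without Ctrl+IGF1 replicate 3 it was -3.03 with an adjusted p of 0.00908 by limma, and it passed in 3 of 17 alternatives, all of which leave out that library (adjusted p 0.00908 to 0.891 over the 17). In TMEM216 cells HRH1 had 43.4, 41.7 and 20.9 TPM in TMEM216+IGF1 libraries, against 25.8, 37.9 and 43.9 TPM in TMEM216 libraries, and the difference between the responses of 2.12 did not pass (adjusted p = 0.754).

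MINDY2, a deubiquitinase named after its values were seen, had 1.33, 2.40 and 0.700 TPM in Ctrl+IGF1 libraries, against 4.15, 4.17 and 4.84 TPM in Ctrl libraries, without overlap. The difference was -1.18 (adjusted p = 0.177), and -0.035 in TMEM216 cells.

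Replication-dependent histone genes took 0.109, 0.103 and 0.113% of all TPM in Ctrl+IGF1 libraries and 0.0992, 0.102 and 0.102% in Ctrl libraries, which did not overlap (p = 0.1, the minimum of this two-sided exact permutation test). Of 14 tested histone genes 0 passed by limma and 2 had an unadjusted p below 0.05, both higher, H2AC18 and H1-2 (differences 0.40 and 0.29, 0.28 and 0.17 without Ctrl+IGF1 replicate 3).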
